A study of Mus musculus with 25 samples.

Results

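Fibrinogen is built from 3 polypeptide chains encoded by Fga (the Aα chain), Fgb (the Bβ chain) and Fgg (the γ chain), and these 3 genes, of 19937 measured, are described here across 25 arrays of mouse mammary tumors and reference mammary glands. They were chosen by name as a family, with 1 probe set per gene symbol, the probe set with the highest mean over the 25 arrays. The choice was made with results of these arrays known: Fgg had been singled out in the comparison of K8 tumors with K8 glands and Fgb in the comparison of the tumor groups. In those 2 comparisons the chains' values are therefore a description with a standard error and no p-value.

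Fibrinogen is a plasma glycoprotein secreted mainly by hepatocytes as a dimer that holds each chain in pairs joined by disulfide bonds. Thrombin cleaves it to fibrin, which factor XIII crosslinks and plasmin degrades. The genes are neighbours on their chromosome, and in liver they are induced together in the acute-phase response by interleukin-6 through STAT3, with C/EBP and HNF1 factors supporting liver expression. Fibrinogen has also been found in epithelia outside the liver, and deposited fibrin is common in tumor stroma.

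The study measured total RNA of whole tissue on Affymetrix whole-transcript arrays. There were 10 tumors of K8-creERT2/PIK3CA H1047R mice and 10 of Lgr5-creERT2/PIK3CA H1047R mice, 2 glands of K8-creERT2 ctrl mice and 3 glands of Lgr5-creERT2 ctrl mice. H1047R is an activating mutation of the PI3K catalytic subunit. Tamoxifen, given to adults at 7 to 8 weeks of age, activated the Cre recombinase in keratin 8-positive or Lgr5-positive mammary cells. Every K8 animal was on a mixed FVB/CD1 background and every Lgr5 animal on a mixed FVB/C57/BL6 background, so Cre line and background cannot be told apart. All groups, controls included, carried a creERT2 transgene. The tamoxifen text in the labels speaks of tumors, and does not say separately what the control mice received. The labels do not say that each tumor came from its own animal, so the p-values measure the spread between these samples.

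Several arrays stood apart from their labels. The mean of 13 adipocyte genes, which a whole mammary gland with its fat pad would express strongly, lay at 7.42 to 9.60 log2 units in the 5 arrays labelled gland. It lay at 12.52 to 12.69 in 5 arrays labelled Lgr5 tumor (numbers 2, 6, 7, 8 and 9). The mean of 14 squamous keratinocyte genes was 8.81 to 10.61 in the arrays labelled gland, 9.76 in K8 tumor 9 and 10.11 in Lgr5 tumor 10, and at most 8.42 in the other arrays. Some arrays may thus carry a wrong label, which was not tested, and a tumor minus gland value would then not compare tumor with gland. Groups below are named as labelled, and no array was moved. Differences of the chains that involve tumors are also given with some or all of these 7 arrays left out.

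Fgb and Fgg ranged over about 6 log2 units, whereas Fga was nearly flat. Fgb ran from 6.35 to 12.61 and Fgg from 6.22 to 12.61 log2 units over the 25 arrays. Fga ran from 5.43 to 5.65, and the second Fga probe set was as flat. Both stayed below every array's median, which lay between 6.34 and 6.43. Whether Fga was detected above background was not tested, so its flat values do not show steady expression. The SD over the 25 arrays was 2.33 for Fgb, 2.28 for Fgg and 0.06 for Fga. Among all 19937 genes, 99.9% had a smaller SD than Fgb and 99.9% a smaller SD than Fgg, while 15.3% had a smaller SD than Fga. These are values of different probe sets, so their levels cannot be compared between genes. Only differences between arrays are read.

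**Figure D1:**
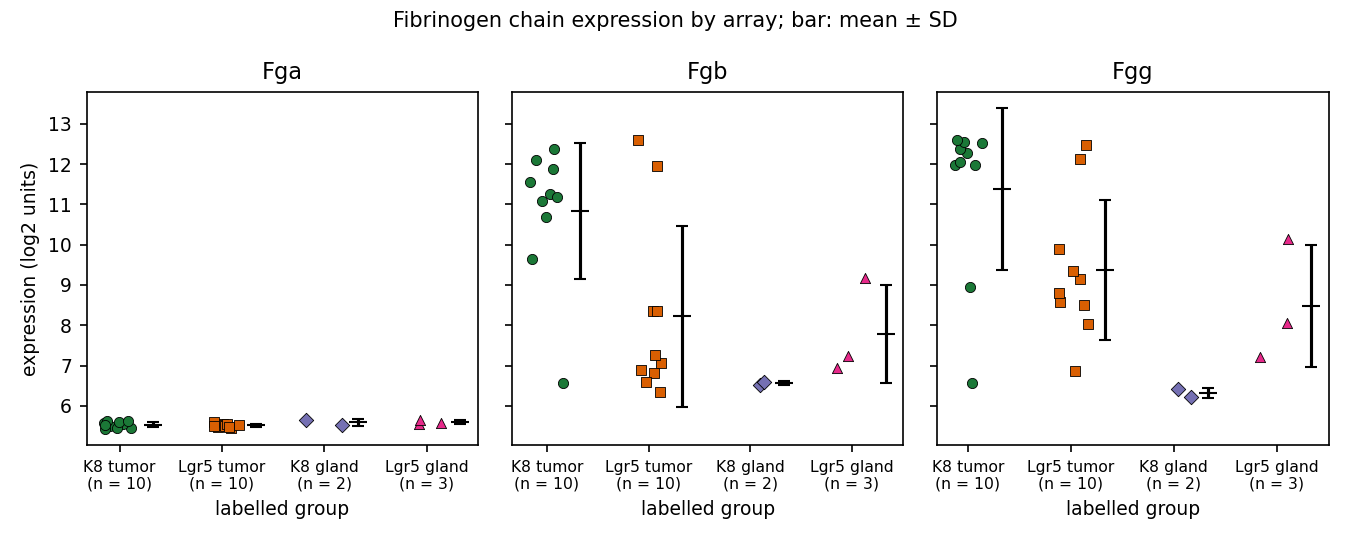
Expression of Fga, Fgb and Fgg in log2 units (vertical axis) on each of the 25 arrays, by labelled group (horizontal axis), with each point 1 array and the bars the group mean ± SD. Fga stays between 5.43 and 5.65 in all groups, while Fgb and Fgg spread over about 6 units, with 8 of the 10 K8 tumors near the top.

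The 5′ flanking sequences of the 3 genes are shown because Fgb and Fgg moved together and Fga did not. Each is the 250 bases before the annotated transcription start, read 5′ to 3′ on the gene's strand, from RefSeq on GRCm38.p6. Capitals mark CTGGGA, the core of the interleukin-6 response element described in fibrinogen promoters. Fga lies at chr3:83025903-83026152 on the plus strand, Fgb at chr3:83049864-83050113 on the minus strand and Fgg at chr3:83007474-83007723 on the plus strand.
Fga: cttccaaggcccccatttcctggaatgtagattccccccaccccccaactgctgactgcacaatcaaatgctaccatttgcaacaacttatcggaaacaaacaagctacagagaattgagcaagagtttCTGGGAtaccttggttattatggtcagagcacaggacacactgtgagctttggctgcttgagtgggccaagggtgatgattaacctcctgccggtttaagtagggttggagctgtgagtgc
Fgb: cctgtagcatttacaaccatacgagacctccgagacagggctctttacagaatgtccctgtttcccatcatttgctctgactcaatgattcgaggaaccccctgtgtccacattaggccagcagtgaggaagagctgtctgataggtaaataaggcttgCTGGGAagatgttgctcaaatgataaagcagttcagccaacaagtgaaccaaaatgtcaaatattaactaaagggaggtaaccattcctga
Fgg: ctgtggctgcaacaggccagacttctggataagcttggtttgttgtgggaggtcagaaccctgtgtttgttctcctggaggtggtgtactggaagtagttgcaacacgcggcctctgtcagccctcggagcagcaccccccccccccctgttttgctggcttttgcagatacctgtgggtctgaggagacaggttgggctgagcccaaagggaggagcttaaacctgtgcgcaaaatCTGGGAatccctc

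CTGGGA occurred once in each window, on the coding strand, with its first base at position -121 in Fga, -91 in Fgb and -13 in Fgg, where -1 is the base before the start. Searched on both strands, it was found in 27.0% of 32851 promoter windows of the same length. Of 4 other motifs searched on both strands, Fga and Fgb each held all 4 and the Fgg window none. These were the STAT dimer site TTCNNNGAA (in 7.02% of windows), the C/EBP site TTGCNNAA (9.56%), the HNF1 core GTTAAT (6.43%) and the forkhead core TGTTTNC (17.8%). The TATA box TATAAA was in none of the 3 windows and in 12.4% of all windows. Fga, flat below the array medians, and the variable gene, Fgb, thus held the same motifs in these windows. The matches describe letters only and say nothing of whether a factor was bound.

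Among K8 tumors, both variable chains were high in 8 of 10 arrays. Fgb in this group ran from 6.57 through a median of 11.23 to 12.39, and Fgg from 6.56 through a median of 12.17 to 12.61. K8 tumors 1, 2, 3, 4, 5, 6, 8 and 10 lay at 10.70 to 12.39 for Fgb and 11.97 to 12.61 for Fgg. K8 tumor 7 was lower for both, at 9.64 and 8.95. K8 tumor 9 was lowest, at 6.57 for Fgb and 6.56 for Fgg, beside 6.52 and 6.60 (Fgb) and 6.41 and 6.22 (Fgg) in the K8 gland arrays. Fga in K8 tumors had a median of 5.53 and ran from 5.43 to 5.63, with K8 tumor 9 highest.

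Among Lgr5 tumors, 2 arrays reached the K8 tumor level and the rest did not. Fgb ran from 6.35 through a median of 7.16 to 12.61, and Fgg from 6.86 through a median of 8.98 to 12.48. Lgr5 tumors 3 and 5 were high, with Fgb at 11.94 and 12.61 and Fgg at 12.13 and 12.48. Lgr5 tumors 1 and 4 were intermediate, with Fgb at 8.36 and 8.34 and Fgg at 9.90 and 9.34. Lgr5 tumor 10 was low for both, with Fgb at 6.59 and Fgg at 6.86. Fga in this group lay between 5.45 and 5.59 with a median of 5.51.

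The 5 adipocyte-rich Lgr5 tumor arrays had low Fgb and middling Fgg. Fgb was 6.89, 7.05, 6.81, 7.27 and 6.35 in arrays 2, 6, 7, 8 and 9, and Fgg was 9.15, 8.57, 8.50, 8.81 and 8.04. The within-array difference of Fgg minus Fgb was 1.52 to 2.26 log2 units there and -0.68 to 1.55 on the other 20 arrays, and the ranges met only at Lgr5 tumor 1. Whether adipocyte content plays a part in this was not tested. In whole-tissue RNA, fewer cells of a type and less RNA per cell cannot be told apart.

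Among the arrays labelled gland, the K8 pair was low and the Lgr5 arrays were spread. Fgb was 6.52 and 6.60 in K8 glands 1 and 2, and Fgg was 6.41 and 6.22. In Lgr5 glands 1, 2 and 3, Fgb was 6.95, 9.18 and 7.24, and Fgg was 8.05, 10.15 and 7.21. Lgr5 gland 2 stood above the others and above 8 of the 10 Lgr5 tumors for both genes. Fga was 5.65 and 5.53 in the K8 glands and 5.55, 5.65 and 5.57 in the Lgr5 glands, which overlapped the tumors.

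The order of the group means was the same for Fgb and Fgg. The means ± SD of Fgb were 10.84 ± 1.69 in K8 tumors (n = 10), 8.22 ± 2.25 in Lgr5 tumors (n = 10), 7.79 ± 1.21 in Lgr5 glands (n = 3) and 6.56 ± 0.05 in K8 glands (n = 2). Those of Fgg were 11.39 ± 2.01, 9.38 ± 1.75, 8.47 ± 1.51 and 6.31 ± 0.13 in the same order. Lgr5 tumors and Lgr5 glands did not differ beyond their spread for either gene. Lgr5 and K8 glands did not overlap, but nothing is read from this with only 3 and 2 arrays. The tumor groups overlapped each other. The 4 means of Fga lay between 5.51 and 5.59, each step smaller than the larger SD.

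Across arrays the levels of Fgb and Fgg tracked each other within each tumor group. Pearson's r between them was 0.965 over the 10 K8 tumors and 0.952 over the 10 Lgr5 tumors, with Spearman's rho of 0.927 and 0.952. Without the 2 arrays farthest from the median of Fgb, r was 0.917 and 0.774. The arrays fall into a lower and an upper set, since no array had Fgg between 10.15 and 11.97. Within the 15 arrays below that gap r was 0.709, and within the 10 arrays above it r was 0.799. These values are descriptions: the genes share arrays and the order of the arrays was already in view.

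Fga did not track the other chains. Its r with Fgg was -0.56 over the K8 tumors and -0.20 over the Lgr5 tumors. Without the 2 arrays farthest from the median of Fga, these became -0.27 and 0.40. The 2 Fga probe sets themselves had r = 0.15 with each other over the 25 arrays, so no shared pattern between arrays was measured for this gene.

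**Figure D2:**
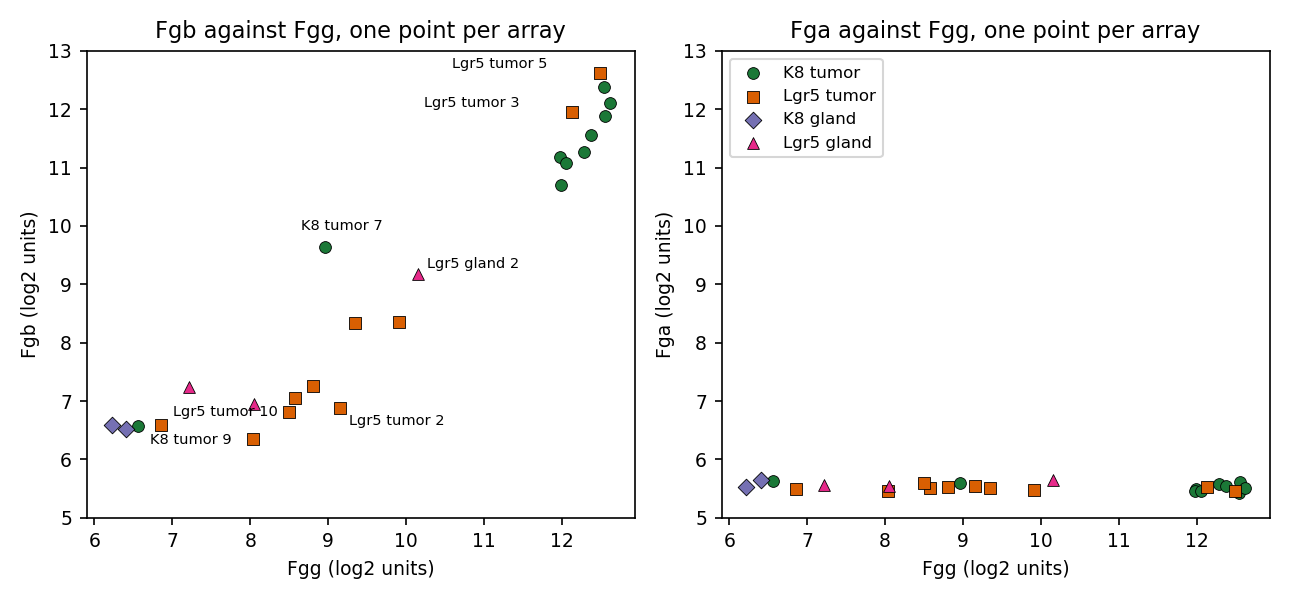
Fgb (left) and Fga (right) against Fgg, all in log2 units, with 1 point per array and colour and shape giving the labelled group. Fgb rises with Fgg from the K8 glands and K8 tumor 9 at lower left to 8 K8 tumors and Lgr5 tumors 3 and 5 at upper right, while Fga stays between 5.43 and 5.65.

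The comparison of K8 tumors with K8 glands sets the arrays labelled tumor in that line beside those labelled gland, within the limit on labels given above. Fgb was higher in K8 tumors by 4.28 ± 1.41 log2 units (SE; a 19.4-fold difference) and Fgg by 5.07 ± 1.35 (33.7-fold). Fga differed by -0.06 ± 0.05. By limma with Benjamini-Hochberg adjustment over all genes at 0.05, 1 of the 3 chains was called, Fgg, against 9.1% of all genes called in this comparison. Because the gene was singled out here, nothing is read from that count. K8 tumor 9 lay between the K8 glands for Fgb, and the other K8 tumors lay above both. For Fgg every K8 tumor lay above both, K8 tumor 9 by the smallest distance. Without K8 tumor 9, the differences were 4.75 for Fgb and 5.61 for Fgg. With only 2 control arrays the number of called genes was unstable: it was 1815 with both K8 glands, 30 without K8 gland 1 and 75 without K8 gland 2. Calls of single genes against the K8 glands, given further on, rest on both arrays. Of 14 squamous genes, 11 were lower in K8 tumors, and of 10 neutrophil genes 4 were lower, and the part of these cells in the Fgb and Fgg differences was not tested.

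In the comparison of Lgr5 tumors with Lgr5 glands no chain passed the test. Fgb differed by 0.43 ± 1.20 log2 units (limma adjusted p = 0.850), Fgg by 0.91 ± 1.15 (limma adjusted p = 0.641) and Fga by -0.08 ± 0.04 (limma adjusted p = 0.203). Thus 0 of 3 chains were called, against 15.9% of all genes. The Fgb value turned to -0.06 without Lgr5 tumor 5 and rose to 1.13 without Lgr5 gland 2. Without the 5 adipocyte-rich arrays, Fgb was 1.78 ± 1.30 and Fgg 1.67 ± 1.37 (limma adjusted p = 0.469 and 0.525). Without all 7 arrays that stood apart, they were 2.52 ± 0.95 and 2.49 ± 0.92 (limma adjusted p = 0.0785 and 0.0721), with 4 Lgr5 tumors left. All 13 adipocyte genes were higher and 13 of 14 squamous genes lower in the full set of Lgr5 tumors, and the part of these cells was not tested. Genes called in this comparison numbered 3168 with all arrays and 1 without the 5 adipocyte-rich ones. At most 1 of its single-gene calls thus holds when only those 5 are left out. Without all 7 arrays that stood apart, the count was of similar size to that with all arrays. The calls thus depended on which arrays were left out.

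Between the tumor groups, which differ in Cre line and background, the means of the variable chains were higher in K8 tumors. Fgb was higher by 2.62 ± 0.81 log2 units (6.13-fold) and Fgg by 2.01 ± 0.78 (4.03-fold), while Fga differed by 0.02 ± 0.03. The limma test called 1 of the 3 chains, Fgb, against 21.3% of all genes, in a comparison that had singled Fgb out. These values shared their K8 and Lgr5 arrays with the comparisons above and are not separate evidence. Without the 5 adipocyte-rich Lgr5 arrays, Fgb was higher by 1.27 and Fgg by 1.24, and limma called 0 genes of any kind, where it called 4246 with them. All 13 adipocyte genes were lower in K8 tumors in the full comparison, and no single-gene call between the tumor groups holds without those 5 arrays.

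Between the gland groups, Fgb was lower in K8 glands by 1.23 ± 1.66 log2 units and Fgg by 2.16 ± 1.60, and Fga was equal to 2 decimals, at 0.00 ± 0.06. None passed (limma adjusted p = 1.000 for each). The limma test called 0% of all genes here, 0 of 19937, with 319 at an unadjusted p under 0.05. The difference was smaller without Lgr5 gland 2: Fgb was then lower by 0.54 and Fgg by 1.32.

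**Figure D3:**
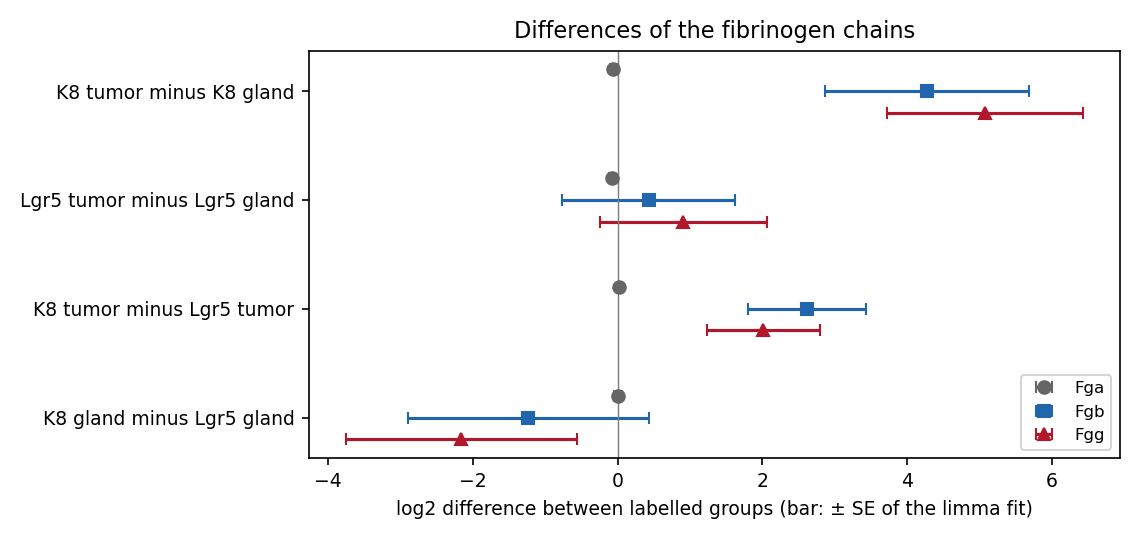
Log2 difference (horizontal axis) of Fga, Fgb and Fgg in the 4 comparisons of labelled groups (vertical axis), with bars of ± 1 SE from the limma fit over 25 arrays. In the K8 line the tumor minus gland values of Fgb and Fgg are 4.28 and 5.07, in the Lgr5 line they are 0.43 and 0.91, each less than its SE, and Fga lies between -0.08 and 0.02 throughout.

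The 3 genes lie together on chromosome 3 in the order Fgg, Fga, Fgb, so Fga, flat below the array medians, sits between the variable ones. Of the 4 annotated genes on each side, 7 were measured. Plrg1, the spliceosome-associated gene next to Fgb, followed the variable chains over a much smaller range, 9.87 to 11.22 log2 units. Its r with the mean of Fgb and Fgg was 0.925 over the K8 tumors, 0.936 without K8 tumor 9, and 0.924 over the Lgr5 tumors. Plrg1 was lowest in Lgr5 tumor 2 and highest in K8 tumor 10, and it was higher in K8 than in Lgr5 tumors by 0.55 ± 0.16 (limma adjusted p = 0.0226), a call that ended without the 5 adipocyte-rich arrays.

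The other neighbours did not rise with the chains. On the Fgg side, Lrat, which esterifies retinol, had r = -0.46 over the K8 tumors and 0.16 over the Lgr5 tumors. Rbm46, Npy2r and Map9 had r between -0.40 and 0.48 over the K8 tumors and between -0.49 and -0.28 over the Lgr5 tumors. On the Fgb side beyond Plrg1, Gm10710 had r = -0.54 and -0.50, and Sfrp2, a secreted Wnt modulator, -0.16 and 0.03. Without K8 tumor 9, r over the K8 tumors was -0.79 for Lrat, -0.74 for Rbm46 and -0.73 for Sfrp2, and 0.31 for Gm10710. None of these 6 was called in any of the 4 comparisons, which called 9.1%, 15.9%, 21.3% and 0% of all genes. Nothing is read from that count.

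**Figure D4:**
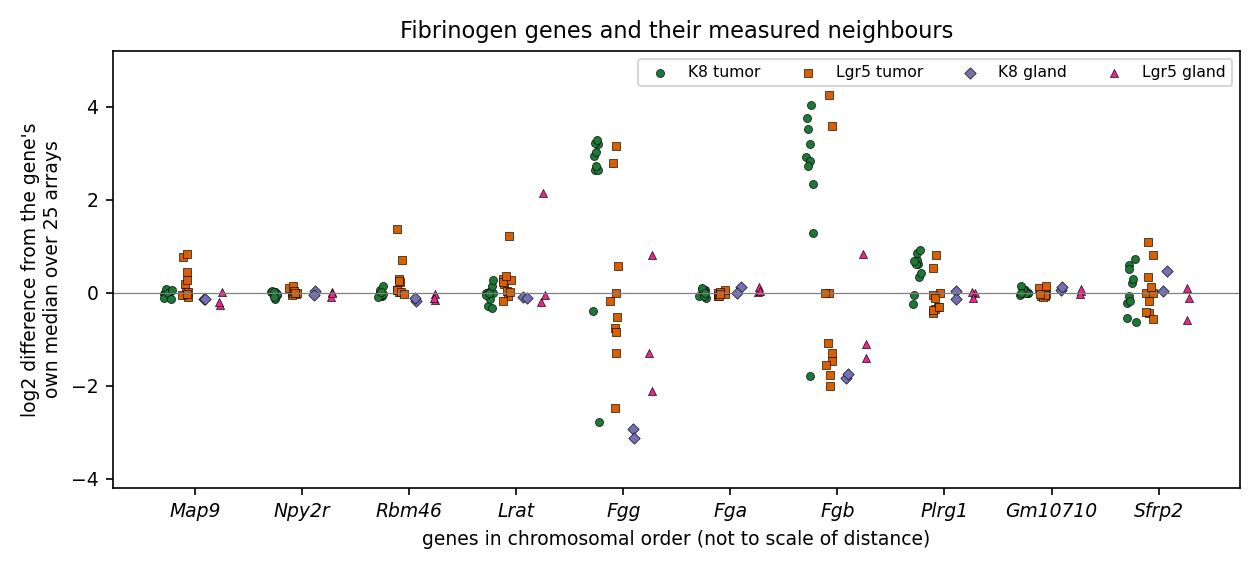
Fga, Fgb, Fgg and the 7 measured neighbours in chromosomal order (horizontal axis, distances not to scale), each array shown as its log2 difference from that gene's own median over 25 arrays (vertical axis), with colour and shape giving the labelled group. Fgg and Fgb spread over several units on either side of a flat Fga, and Plrg1 shows a smaller spread with K8 tumors uppermost.

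The genes most like the chains by Pearson's r with their centred mean were sought among 18013 named genes, of which 123 had r above 0.9 and 19 had r below -0.9 over the 25 arrays. The closest were Kcnmb1 (r = 0.966), a smooth-muscle potassium channel subunit, and Actg2 (0.957), smooth-muscle γ actin. Exoc3l4, Arhgap5, Zfp57, Fryl, Arhgef6, Smim31, Gria3 and Msantd4 followed, at 0.955 to 0.943. Actg2 was 10.74 to 11.80 in the 8 K8 tumors with high fibrinogen, 11.05 and 11.32 in Lgr5 tumors 3 and 5, and at most 9.05 elsewhere. Kcnmb1 ran from 5.77 to 10.53. Over the K8 tumors without array 9, r with the mean of Fgb and Fgg was 0.828 for Kcnmb1 and 0.880 for Actg2. Both genes are typical of myoepithelial and smooth muscle cells.

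The genes most opposed to the chains were Zfp703 (r = -0.960), Sh3kbp1, Sipa1l1, Dusp22 and Dpp4 (r = -0.932), the last a cell-surface peptidase. Dpp4 ran from 6.22 in K8 tumor 5 to 10.29 in Lgr5 gland 1. Over the 20 tumor arrays alone the leading genes were Nek4 (r = 0.972), Zfp57, Kcnmb1, Dipk1a, Scnn1a, Actg2, Rtn1, Htr4, Exoc3l4 and Zfp933, and 4 genes stood in both lists of 10. Nek4 was less alike over all 25 arrays, at 0.800.

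The means of the hormone-sensing luminal and basal cell lists moved with Fgb and Fgg, though not every member did. The mean of 8 hormone-sensing genes had r = 0.921 with the mean of Fgb and Fgg over the 10 K8 tumors, 0.625 over the 9 without K8 tumor 9, and 0.708 over the Lgr5 tumors. The mean of 12 basal genes had r = 0.92, 0.695 without K8 tumor 9, and 0.81 over the Lgr5 tumors. K8 tumor 9 was the lowest K8 tumor for both lists. These lists were not alone in this. The mean of 13 adipocyte genes had r = -0.425 over the K8 tumors and -0.962 without K8 tumor 9. Over the Lgr5 tumors it had r = -0.602, and -0.929 without Lgr5 tumor 10. The mean of 9 cell cycle genes had r = 0.226 and 0.327 over the K8 and Lgr5 tumors. It had 0.752 without K8 tumor 9 and 0.728 without Lgr5 tumor 10, beside 0.625 and 0.709 for the hormone-sensing mean. Foxa1, the luminal pioneer factor that also acts in liver, had r = 0.964 over the K8 tumors, 0.955 without K8 tumor 9 and 0.804 over the Lgr5 tumors, and was 7.15 in K8 tumor 9 against 10.48 to 11.82 in the other K8 tumors. Myh11, smooth-muscle myosin, had r = 0.936, 0.702 without K8 tumor 9, and 0.918 over the Lgr5 tumors. Over the K8 tumors Greb1, Krt14 and Itgb4 went the other way, at -0.456, -0.508 and -0.403, and the other measured members had positive r. Pgr fell from 0.849 to 0.217 without K8 tumor 9. Over the Lgr5 tumors, r was -0.314 for Greb1, -0.447 for Tnfsf11 and 0.019 for Esr1. Without Lgr5 tumor 10, these were -0.193, -0.535 and -0.620. In K8 tumors against K8 glands, 4 of 8 hormone-sensing genes (Esr1, Cited1, Foxa1 and Pgr) and 5 of 12 basal genes (Myh11, Acta2, Cnn1, Mylk and Oxtr) were higher and none lower, beside 9.1% of all genes called. The list medians were 1.44 and 0.71, beside -0.01 over all genes. The Lgr5 comparison differed. In Lgr5 tumors against Lgr5 glands 1 of 8 hormone-sensing genes (Esr1) was higher and 0 lower, 12.5% beside 15.9% of all genes. Of 12 basal genes, 0 were higher and 2 (Itgb4 and Krt14) lower, 16.7% of the list. The list medians there were 0.68 and -0.37. The part of these cells in the fibrinogen differences was not tested.

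The mean of the hepatocyte list stayed low and flat, though single members did not. The mean of 18 hepatocyte genes lay between 5.59 and 6.04 log2 units on all arrays, below every array's median. In K8 tumors against K8 glands 0 of 18 were called (list median 0.01), beside 9.1% of all genes. Nothing is read from that count for a list this low. Apoa1 ran from 5.92 to 6.51 and Ttr from 5.34 to 5.70. Alb, serum albumin, was 9.92 to 10.30 in the 5 adipocyte-rich Lgr5 arrays and at most 5.89 on the other 20, among them the K8 glands, K8 tumor 9 and Lgr5 tumor 10, where Fgb was as low as in those 5. Vtn, vitronectin, was higher in Lgr5 tumors than in Lgr5 glands by 1.40 ± 0.41 (limma adjusted p = 0.0280), or 0.56 without the 5 adipocyte-rich arrays. It was the only hepatocyte gene of 18 called there, beside 15.9% of all genes. C9 followed the chains, with r = 0.872 over the K8 tumors (0.637 without K8 tumor 9) and 0.884 over the Lgr5 tumors (0.903 without Lgr5 tumor 10). Between the tumor groups, C9 was higher in K8 tumors and Vtn and Alb were lower. That was 16.7% of the list, beside 21.3% of all genes.

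Among 14 liver transcription factor genes, Foxa1 was the only one called in K8 tumors against K8 glands, higher by 3.25 ± 0.88 (limma adjusted p = 0.0278). That is 7.14% of the list beside 9.1% of all genes, so nothing is read from the count. Hnf4a, a master regulator of hepatocytes, ranged only from 5.89 to 6.28, and Foxa2 from 5.95 to 6.31. Gata6 ran opposite to the chains, with r = -0.973 over the K8 tumors, -0.936 without K8 tumor 9 and -0.910 over the Lgr5 tumors. It was 6.80 to 6.97 in the 8 fibrinogen-high K8 tumors and 8.33 in K8 tumor 9. Cebpa, a C/EBP factor of liver and fat, was higher in Lgr5 tumors than in Lgr5 glands by 1.61 ± 0.50 (limma adjusted p = 0.0343), or 0.55 without the adipocyte-rich arrays.

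Genes of the interleukin-6 and STAT3 pathway, which induces hepatic fibrinogen, were called in both directions. In K8 tumors against K8 glands, of 20 measured genes, Lifr and Il6st were higher and Lif and Pim1 lower, with a list median of 0.01 (20% of the list called, beside 9.1% of all genes). Lifr, the LIF receptor, was higher by 1.98 ± 0.38 and Il6st, the shared gp130 subunit, by 0.62 ± 0.17 (limma adjusted p = 0.0103 and 0.0276). Pim1, a STAT3 target, was lower by 1.63 ± 0.39 (limma adjusted p = 0.0182). Il6 itself stayed between 4.84 and 5.09 on all arrays. In Lgr5 tumors against Lgr5 glands 3 of 20 were higher and 5 lower, with a list median of -0.21 (40% called, beside 15.9%). Stat3 was higher in K8 than in Lgr5 tumors by 0.40 ± 0.11 and Osmr, the oncostatin M receptor, by 0.55 ± 0.17 (limma adjusted p = 0.0190 and 0.0265), while Il6ra and Jak1 were lower. That was 20% of the list, beside 21.3% of all genes. Without the 5 adipocyte-rich arrays the Stat3 and Osmr differences were 0.06 and 0.07. The mean of the 20 genes had r = -0.753 with the mean of Fgb and Fgg over the K8 tumors, -0.647 without K8 tumor 9, and 0.390 over the Lgr5 tumors.

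The mean of the acute-phase genes ran opposite to Fgb and Fgg in the K8 tumors, but its members were divided. The mean of 17 such genes had r = -0.935 there, -0.849 without K8 tumor 9, and -0.427 over the Lgr5 tumors (-0.256 without Lgr5 tumor 10). Steap4, Serpina3n and Lcn2 had r = 0.583, 0.508 and 0.227 over the K8 tumors, and -0.070, -0.279 and 0.272 without K8 tumor 9. Over the Lgr5 tumors without array 10, r was 0.727 for Saa1, 0.924 for Saa2 and 0.019 for Saa3. Serum amyloid genes fell in K8 tumors against K8 glands: Saa1 by 2.59 ± 0.63, Saa2 by 3.4 ± 0.99 and Saa3 by 4.03 ± 1.09 log2 units (limma adjusted p = 0.0193, 0.0363 and 0.0271). These 3 were the only ones of the 17 called, 17.6% beside 9.1% of all genes. Saa1, Saa2 and Saa3 were also lower in the Lgr5 comparison, with Lbp, while Serpina3n and Steap4 were higher (35.3% of the list called, beside 15.9%). Between the tumor groups the called genes were divided (35.3%, beside 21.3% of all genes). Lcn2, Lbp and Cp were higher in K8 than in Lgr5 tumors, by 0.68 ± 0.21, 0.50 ± 0.16 and 0.47 ± 0.16 (limma adjusted p = 0.0284, 0.0338 and 0.0385), and Orm1, Cfb and Serpina3n were lower. Without the 5 adipocyte-rich arrays the Lbp and Cp differences were 0.06 and 0.02. Orm1 was lower by 3.09 ± 0.73 (limma adjusted p = 0.0137), or by 1.26 without the 5 adipocyte-rich arrays.

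Coagulation genes were called at shares near those of all genes. Nothing is read from these counts, or from those of the shorter fibrinolysis and platelet lists. Of 22 coagulation genes, F8 (1.34 ± 0.42), Vwf (0.82 ± 0.26) and Proc (0.41 ± 0.13) were higher in K8 tumors than in K8 glands (limma adjusted p = 0.0447, 0.0499 and 0.0499) and 0 were lower, 13.6% of the list beside 9.1% of all genes, with a list median of 0.04. Vwf, Thbd, F13a1 and Tfpi were higher in Lgr5 tumors than in Lgr5 glands, 18.2% beside 15.9%. F13a1 encodes the factor XIII subunit that crosslinks fibrin, and it was higher by 1.20 ± 0.39 (limma adjusted p = 0.0423), or 0.82 without the adipocyte-rich arrays. Between the tumor groups, Proc was higher in K8 tumors and Thbd, Tfpi and Procr were lower, 18.2% of the list beside 21.3% of all genes. Of 11 fibrinolysis genes only Serpinb2, the plasminogen activator inhibitor PAI-2, was called in the K8 comparison, lower by 1.99 ± 0.57 (limma adjusted p = 0.0331). That was 9.09% of that list, beside 9.1% of all genes. Pf4, a platelet chemokine, was the only one of 7 platelet genes called there, higher by 1.69 ± 0.35 (limma adjusted p = 0.0123), 14.3% of that list beside 9.1% of all genes. In Lgr5 tumors against Lgr5 glands 1 fibrinolysis gene (Plat) was higher and 2 (Plaur and Serpinb2) lower, 27.3% beside 15.9% of all genes. Between the tumor groups 1 fibrinolysis gene (Plgrkt) was lower in K8 tumors, 9.09% beside 21.3%.

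Receptors, relatives and the secretory route were also looked at. Of 11 fibrinogen receptor genes, Itgb1, the β1 integrin subunit, was the only one called in the K8 comparison (0.36 ± 0.10, limma adjusted p = 0.0339), a share at the background. Of 17 other genes with a fibrinogen-related domain, Angpt1 was the only one (1.46 ± 0.36, limma adjusted p = 0.0200), 5.88% beside 9.1% of all genes. Fgl1, the liver relative of fibrinogen, stayed between 5.40 and 5.81. The mean of 12 secretion genes had r = 0.652 and 0.701 with Fgb and Fgg over the K8 and Lgr5 tumors. None of the 12 was called in K8 tumors against K8 glands, beside 9.1% of all genes. In Lgr5 tumors against Lgr5 glands only P4hb was called, lower, 8.33% beside 15.9%. Between the tumor groups 6 were higher in K8 tumors, 50% of the list beside 21.3% of all genes, and none of these calls holds without the 5 adipocyte-rich arrays. Lman1, a cargo receptor for clotting factors, had r = 0.838 over the K8 tumors, 0.479 without K8 tumor 9, and 0.740 over the Lgr5 tumors.

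**Figure D5:**
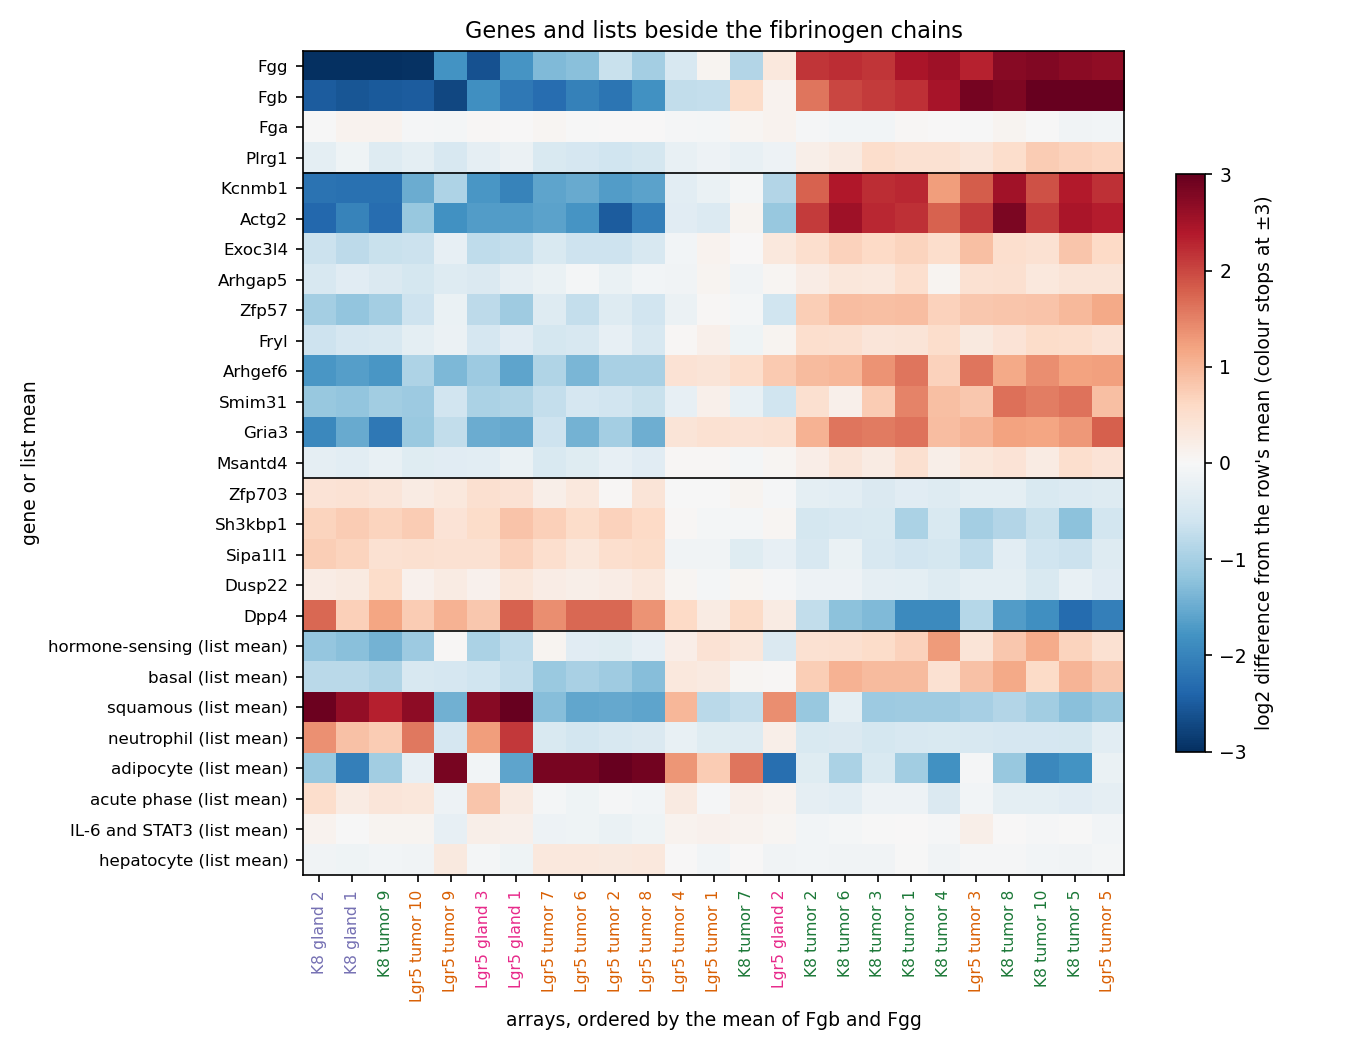
The 25 arrays ordered by the mean of Fgb and Fgg (columns, label colour giving the labelled group) against the chains and Plrg1, the 10 most alike and 5 most opposed genes, and 8 list means (rows), coloured by log2 difference from each row's mean, with colour stopping at ± 3. Kcnmb1, Actg2 and the hormone-sensing and basal means go with Fgb and Fgg, Dpp4 goes against them, and the hepatocyte mean and Fga show little change.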

How the data were processed

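The deposited values are on a log2 scale, judged by their range of 4.13 to 13.94, and cover 25 arrays and 34760 probe sets. The submitters' processing notes name affy, with no version. Background correction, summarization and build were not given in the sources used here. Array medians lay between 6.34 and 6.43. Probe sets with 1 gene symbol (21640) were kept, 1321 with several and 11799 with none were not, and for 954 genes the probe set with the highest mean was used, leaving 19937 genes. The members and the gene lists were chosen with earlier results of these data known.

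The fit used limma 3.58.1 in R 4.3.3 on 4 group means over all 25 arrays, with eBayes and Benjamini-Hochberg adjustment over all genes at 0.05, and was tested on simulated data. Errors beside log2 differences are SEs. The number of arrays limits the precision. Correlations carry no p-value. Named genes were the chains, up to 4 genes per list with the smallest adjusted p and, where few were called, those with the widest range, the genes most and least like the chains' centred mean, and the 4 genes on each side on the chromosome. Apoa1, Ttr, Hnf4a, Foxa2, Il6, Fgl1 and Lman1 were added for their roles after their values were seen. RefSeq promoter windows (GRCm38.p6) were cut to the 250 bases before the start. Alternatives were other fits, quantile normalization, dim-gene filters, array weights, the mean of probe sets, and arrays left out.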

Additional observations from a re-analysis of the deposited data

Results flagged for a closer look

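In groups of 10 arrays, 22 sets of values of the chains and their neighbours were searched for an array far from the others, and 4 were found, where chance gives about 1 in 20. Fgb in K8 tumor 9 was 6.57 log2 units, with the nearest other K8 tumor at 9.64. The second Fga probe set in Lgr5 tumor 8 was 5.49, with the next at 5.40. Rbm46 in Lgr5 tumor 9 was 6.85, with the next at 6.18. Lrat in Lgr5 tumor 4 was 6.97, with the next at 6.11.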

How the results depend on the processing

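The differences of Fgb and Fgg between K8 tumors and K8 glands stayed positive under every alternative tried, as did those between the tumor groups. Fga in K8 against Lgr5 glands changed sign, to -0.0012 with quantile normalization and to -0.0073, -0.0165 and -0.0563 without Lgr5 gland 3, Lgr5 gland 1 and K8 gland 1 (leaving out 1 array: -0.0563 to 0.0611). Fgb in Lgr5 tumors against glands turned to -0.0579 without Lgr5 tumor 5 (leaving out 1 array: -0.0579 to 1.1259). Counts of called genes moved more. Leaving out 1 array gave 30 to 3382 for K8 tumor against gland, 252 to 4990 for Lgr5 tumor against gland, 2291 to 5698 between tumors and 0 to 15 between glands. With only the groups compared, the counts were 2859 and 690 for the tumor-gland comparisons of K8 and Lgr5. Array weights gave 6341, 7815, 7997 and 5. Arrays were also left out after the data were seen. Without Lgr5 tumors 2, 6, 7, 8 and 9 the Lgr5 comparison gave 1 and the tumors 0. Without K8 tumor 9 and Lgr5 tumor 10 the counts were 3963 (K8), 5387 (Lgr5) and 1 (glands), and without all 7 they were 5351 (K8), 0 (tumors) and 1 (glands). The Lgr5 count without all 7 was of similar size to that with all arrays. The causes of these changes were not tested. The dim-gene filter removed Fga and gave it no value. The replicate numbers did not pair the tumors: same-numbered arrays correlated at -0.15 to 0.51 and 1 of 10 matched its own number best. With the replicate block, Lgr5 tumor against gland gave 1737 genes, and Fga between glands -0.0074.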
